A study of Arabidopsis thaliana with 6 samples.

Results

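Of the 2225 peaks called for wild-type SEP3 in Arabidopsis thaliana inflorescences, 626 (28.1%, exact 95% interval 26.3 to 30.1) were at most 1000 bp wide, had their summit inside a protein-coding gene and shared at least 1 bp with a peak called for a SEP3 deficient in tetramerization. The peaks were thus chosen by 3 measured values, their width, their overlap and the place of the SEP3wt summit. These shared narrow gene-body peaks lay in 559 genes. Each was read together with the SEP3tet peak that overlapped it, 605 distinct peaks of the 3601 in that list. The peaks came from ChIP-seq with a native SEP3 antibody on 2 rescue lines. The line called SEP3wt had the genotype pSEP3:SEP3wt;sep1,2,3 and the line called SEP3tet pSEP3:SEP3tet;sep1,2,3, so that both carried a SEP3 transgene under the SEP3 promoter in the same sep1,2,3 mutant background. Each line had 2 ChIP samples and 1 mock sample whose antibody is given as pre-immune, all from inflorescences grown in long days, and gave 1 peak list. The depth of the libraries is unknown, and mock signal was not analysed here. With 1 list per line there is no replicate check, and no test was made.

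SEP3 belongs to the MADS-domain family and is a partner of AP1, AP3, PI and AG, the regulators that set the identity of floral organs. Proteins of the family bind DNA as dimers at short AT-rich sites called CArG boxes, and SEP3 also joins dimers into tetramers that can hold more than 1 site at a time. Binding by floral MADS-domain proteins is best known upstream of genes, but sites inside genes are known too, for example in an intron of AG. The peaks described here are those inside genes that were called both for SEP3wt and for the SEP3 deficient in tetramerization.

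The overlap with SEP3tet was part of the rule and is given only as a description. Of all SEP3wt peaks, 84.7% overlapped a SEP3tet peak. Among narrow peaks the share was 73.8% of the 848 with a summit in a gene and 90.5% of the 1203 with a summit outside every protein-coding gene.

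The peaks were modest in size and in enrichment, with a short tail of strong sites. Their median width was 266 bp in SEP3wt (interval 250 to 286; range 120 to 995 bp), and that of the overlapping SEP3tet peaks was 375.5 bp (360 to 401; range 137 to 3147 bp). The fold enrichment deposited by the authors is ChIP signal over the background estimated in peak calling, and had a median of 3.27 in the SEP3wt list (3.21 to 3.38) and of 3.99 in the SEP3tet list (3.84 to 4.21). The range of the SEP3wt folds was 2.00 to 10.5 and that of the SEP3tet folds 1.97 to 11.02. The authors' −log10 q reached 10 in 139 of the SEP3wt peaks, and 261 overlapped a SEP3tet peak of that strength. A fold is relative to the background of its own list, so the folds of the lists are set side by side and are not a measure of change between the lines.

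Most of the paired summits lay close to each other. Overlap was a condition of the rule, and the nearest overlapping SEP3tet summit was read. Close summits and a shared gene thus follow in part from the choice and are given as a description. The SEP3tet summit lay a median of 32.5 bp from the SEP3wt summit (29 to 38 bp). It was within 100 bp for 487 peaks (77.8%, 74.3 to 81.0), and within 10 bp for 126 (20.1%, 17.1 to 23.5). The SEP3tet summit was in the same gene for 582 peaks (93.0%, 90.7 to 94.8). The SEP3wt interval lay wholly inside the SEP3tet interval for 356 peaks (56.9%), and the reverse held for 69. GA1, AT3G14220 and AP1 were among the pairs whose summits coincided to the base. GA1 encodes the enzyme of the first committed step of gibberellin synthesis, and AP1 specifies sepals and petals. The most distant pairs came from SEP3tet peaks of 2571 and 2809 bp that covered 2 SEP3wt peaks of ERD5, a proline dehydrogenase gene, and 3 of DIN10. Summits were up to 1426 bp apart at ERD5 and 876 and 868 bp apart for 2 of the DIN10 peaks.

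The order of the peaks by fold was related between the lists, but loosely. Across the 626 pairs Pearson's r was 0.65 and Spearman's rho 0.54; the peaks of 1 list share its libraries and background. Of the 63 peaks with the highest SEP3wt folds, 33 were also among the 63 with the highest SEP3tet folds, or 52.4% of each. For shared narrow peaks outside genes, rho was 0.64 both for the 737 within 1 kb of a gene and for the 352 farther away.

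**Figure D1:**
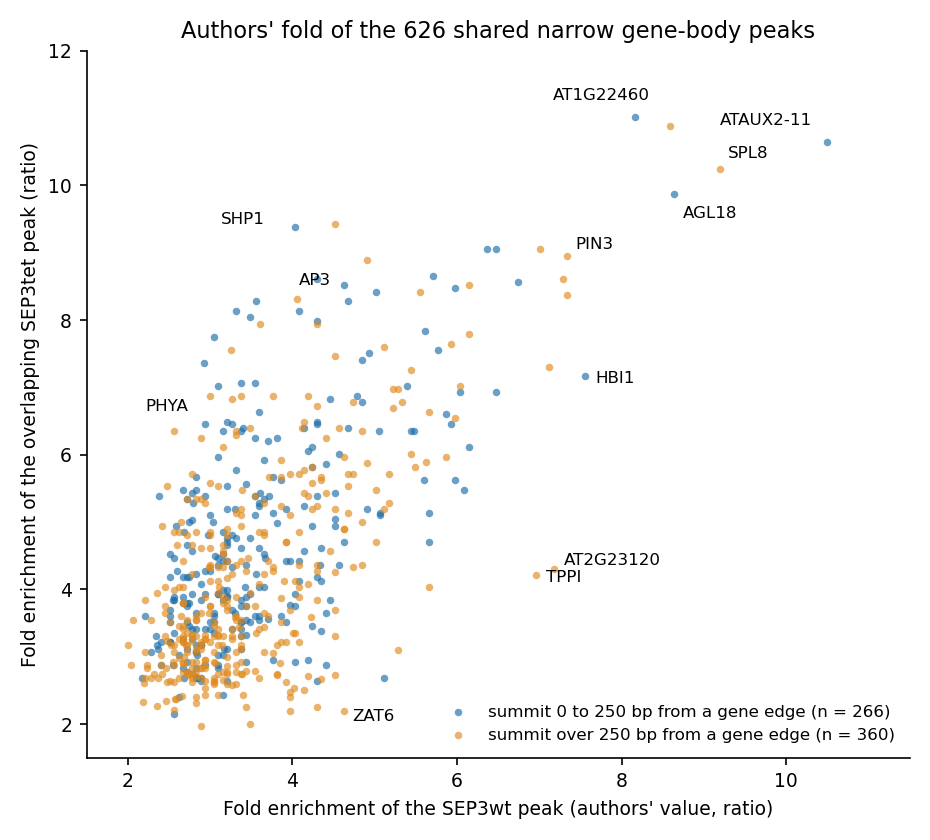
Authors' fold enrichment of each of the 626 shared narrow gene-body peaks in the SEP3wt list (horizontal axis, ratio) against that of the overlapping SEP3tet peak (vertical axis, ratio); each point is 1 peak, blue where the SEP3wt summit lay 0 to 250 bp from a gene edge (n = 266) and orange where it lay farther inside (n = 360). ATAUX2-11, SPL8 and AGL18 stand high in both lists, whereas ZAT6, with folds of 4.63 and 2.19, stands high in the SEP3wt order only.

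The peaks lay more often near the ends of genes than the bases of those genes do. The rule placed the summit inside a gene but set no distance from its edge. The gene table gives no strand, so a gene edge here is either end of the annotated gene, and gene starts and gene ends cannot be told apart. The summit lay 0 to 250 bp from the nearest edge for 266 peaks (42.5%, 38.6 to 46.5), beside 17.5% of the bases of the host genes and 20.7% of those of all protein-coding genes. Over 1000 bp from an edge there were 105 peaks (16.8%, 13.9 to 19.9), beside 34.99% of host gene bases. With each gene scaled to its length, the outer 10% of the gene at either edge held 41.5% of the peaks (37.6 to 45.5), where an even spread gives 20%. The interval of 162 peaks (25.9%, 22.5 to 29.5) ran past the end of the gene although the summit was inside it.

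**Figure D2:**
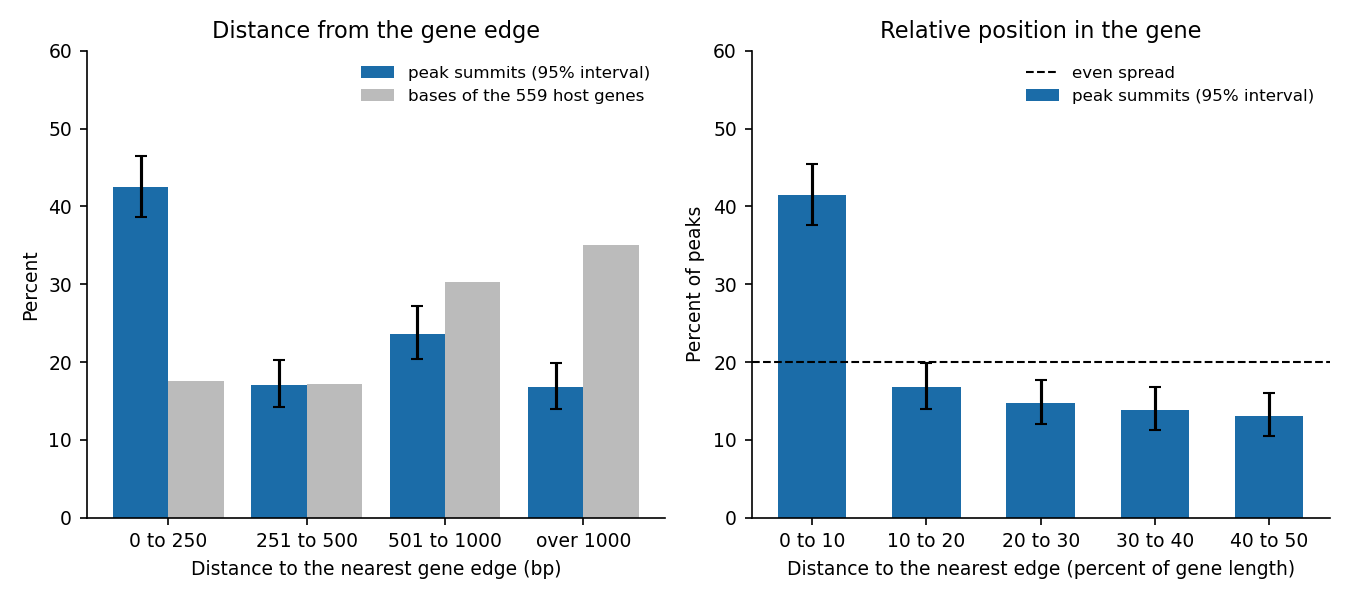
Left, percent of the 626 summits by distance to the nearest gene edge in bp (blue, with exact 95% intervals) beside the percent of bases of the 559 host genes at that distance (grey). Right, percent of summits by distance to the nearest edge as a percent of gene length, with the 20% of an even spread dashed; the outermost part holds 41.5%.

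The SEP3tet folds were highest by their median for peaks nearest to an edge. Within 250 bp of an edge the median SEP3tet fold was 4.40 (4.13 to 4.61), and over 250 and up to 500 bp it was 3.55 (3.27 to 3.99). It was 3.80 (3.41 to 4.28) over 500 and up to 1000 bp and 3.89 (3.45 to 4.28) beyond, with intervals that overlap that of the outermost class. The SEP3wt medians of the same peaks were 3.35, 3.21, 3.27 and 3.32, with intervals that overlapped throughout. A SEP3tet fold of at least 5 was reached by 100 of the 266 peaks within 250 bp of an edge (37.6%, 31.8 to 43.7), by 21.5% of those over 250 and up to 500 bp from one (14.1 to 30.5), by 28.4% over 500 and up to 1000 bp (21.3 to 36.4) and by 26.7% beyond (18.5 to 36.2). Summits were within 100 bp of each other for 87.2% of the outermost class (82.6 to 91.0) and, in the same order, for 65.4% (55.6 to 74.4), 70.3% (62.2 to 77.5) and 77.1% (67.9 to 84.8). The intervals of the last 2 classes of fold shares and of the last class of summit distances overlap that of the outermost class. These differences between positions were not tested, since each gene can hold several peaks.

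**Figure D3:**
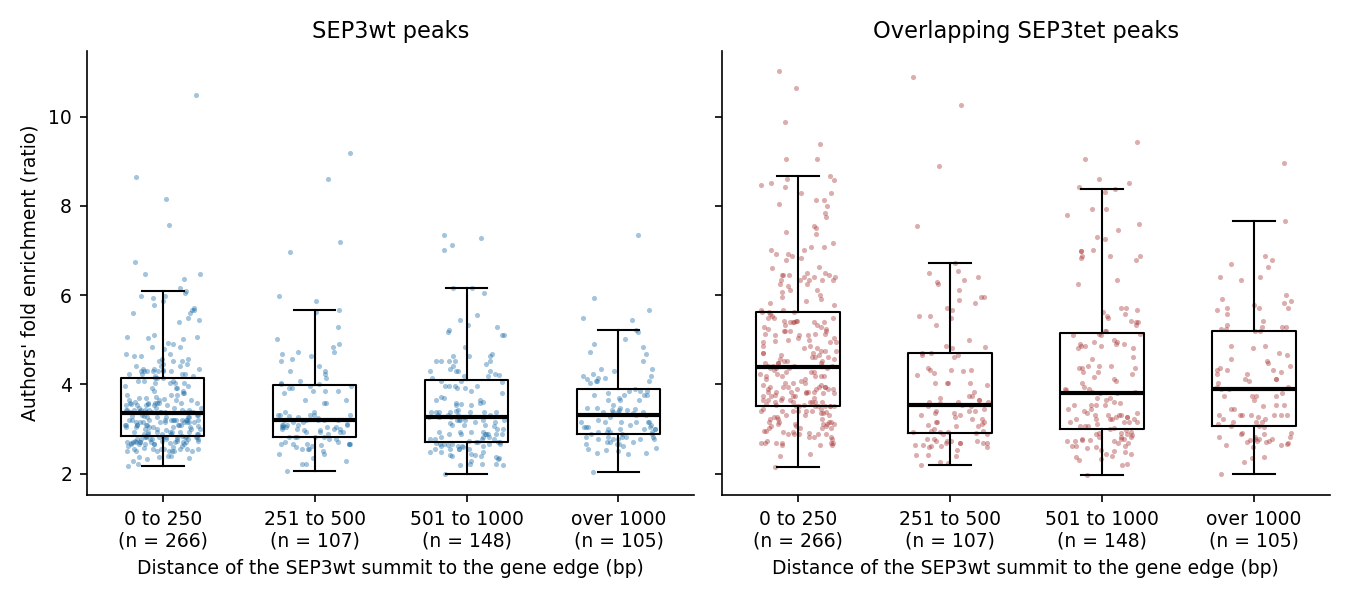
Authors' fold enrichment (ratio) of the SEP3wt peaks (left) and of the overlapping SEP3tet peaks (right) by distance of the SEP3wt summit to the nearest gene edge in bp; points are peaks, boxes span the quartiles with the median as a thick line, and whiskers reach the farthest peak within 1.5 box lengths. The SEP3tet median is 4.40 in the outermost class and 3.55 to 3.89 farther inside, while the SEP3wt medians lie between 3.21 and 3.35.

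Wider peaks had higher folds within each list. Spearman's rho between the width of a SEP3wt peak and its own fold was 0.48 over the 626 peaks, and between the width of the SEP3tet peak and its own fold it was 0.40. Across the lists, rho between the SEP3wt width and the SEP3tet fold was 0.04. For the shared narrow peaks outside genes within 1 kb, rho of the SEP3wt width was 0.73 with the SEP3wt fold and 0.46 with the SEP3tet fold, and for those farther away 0.75 and 0.49. By SEP3wt width, the median SEP3tet fold was 3.70 (3.55 to 3.94) in the 180 peaks of up to 200 bp, 4.37 (4.08 to 4.52) in the 273 over 200 and up to 400 bp, 4.76 (3.70 to 5.39) in the 108 over 400 and up to 600 bp, and 3.35 (3.12 to 3.70) in the 65 wider ones. The SEP3wt medians of these classes were 2.83, 3.42, 3.998 and 3.86. The SEP3tet peak was the narrower of the pair in 3.33%, 19.0%, 39.8% and 64.6% of them, shares that follow in part from sorting by SEP3wt width.

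Shared narrow peaks outside genes had higher folds in both lists and closer summits. Within 1 kb of a gene the median folds were 3.59 in SEP3wt (3.48 to 3.65) and 4.66 in SEP3tet (4.47 to 4.86), and 92.4% of summits lay within 100 bp (90.2 to 94.2). A SEP3wt fold of at least 5 was found in 62 of the 626 gene-body peaks (9.90%, 7.68 to 12.5) and in 130 of those 737 (17.6%, 14.95 to 20.6). Across the gene edge itself the values were close: 72 peaks with the summit in the outer 50 bp of the gene had median folds of 3.42 and 4.71, and 50 shared narrow peaks with the summit 1 to 50 bp outside had 3.68 and 4.57. The 222 narrow gene-body peaks called in SEP3wt alone had a median fold of 2.72 (2.67 to 2.79) and none reached a fold of 5 (0 of 222, up to 1.65%).

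The strongest shared gene-body peak lay in ATAUX2-11 (IAA4; AT5G43700), which encodes an Aux/IAA repressor of auxin response, with a fold of 10.49 in SEP3wt and 10.64 in SEP3tet and its summit 74 bp from the gene edge. SPL8 (AT1G02065), which encodes an SBP-domain transcription factor of pollen sac development, followed with 9.19 and 10.25 (chromosome 1, 365216 to 365795), its summits 5 bp apart. AGL18 (AT3G57390), a MADS-box repressor of flowering, had 8.64 and 9.87 and summits 6 bp apart. These sites were strong in both lists and, at 630, 580 and 482 bp in SEP3wt, wider than the median of 266 bp. The next were AT5G58900 (chromosome 5, 23785049 to 23785508; 8.59 and 10.88) and AT1G22460 (chromosome 1, 7930243 to 7930774; 8.16 and 11.02), which have no symbol in the gene table, and the second of these had the highest SEP3tet fold of the 626.

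Among the 15 highest SEP3wt folds were also HBI1, PIN3, TT7, TPPI, SKIP5 and APS2. HBI1 encodes a bHLH factor that promotes cell elongation, and its peak (chromosome 2, 7954233 to 7954818) had folds of 7.56 and 7.17. TT7, a flavonoid hydroxylase gene (chromosome 5, 2561153 to 2561481), had 7.01 and 9.05. TPPI, a trehalose phosphate phosphatase gene (chromosome 5, 3161055 to 3161484), had 6.96 in SEP3wt but 4.21 in SEP3tet, near the SEP3tet median of 3.99. The same held for AT2G23120, with 7.18 and 4.31, whose SEP3wt peak was 995 bp wide. SKIP5 (6.74 and 8.57) and APS2, an ATP sulfurylase gene (6.47 and 6.93), were high in both lists. The others of the 15, AT1G19330, AT1G07050 and AT5G01720, have no symbol and had SEP3wt folds of 7.34, 7.29 and 7.12. The 8 highest SEP3tet folds added ARV1, a gene of lipid homeostasis (chromosome 1, 8283 to 8501; 4.52 and 9.43), SHP1 (4.03 and 9.38) and AT3G10040. The last is listed with the synonym HRA1 and had 6.47 and 9.05.

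Over all 27444 protein-coding genes, 2.04% held a shared narrow peak, and of the 10374 with a symbol 2.78% did (288 genes). Host genes were long, with a median of 2611 bp beside 2078 bp for all genes, and a longer gene has more room for a summit. Of the host genes, 47 (8.41%, 6.24 to 11.02) also had a SEP3wt summit outside genes within 1 kb of them, beside 3.84% of all protein-coding genes. Gene lists are described below by how many of their genes were hosts, to be read against the 2.78%. Lists were chosen with earlier results of these data known, so that their shares do not stand as independent evidence.

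**Figure D4:**
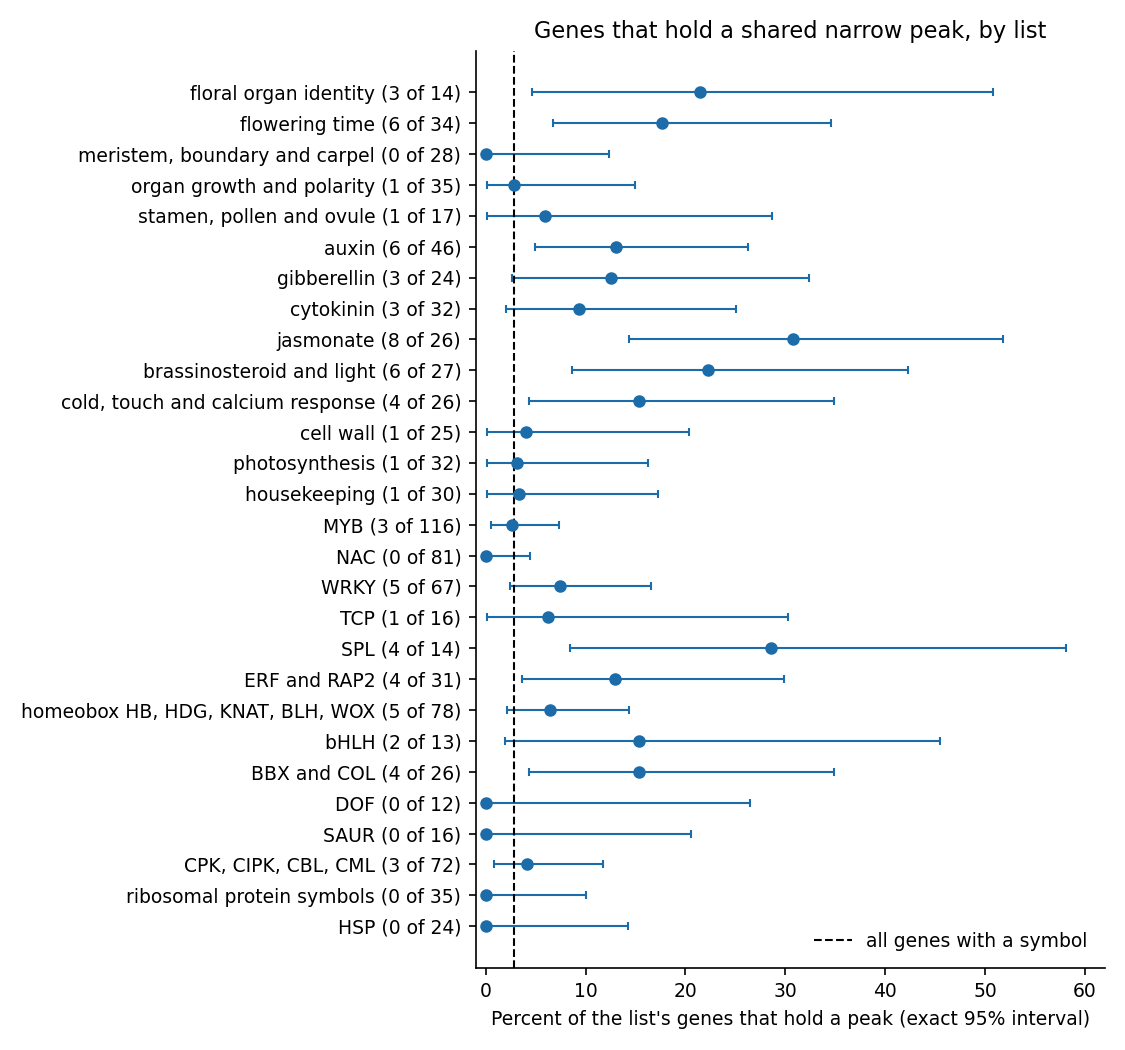
Percent of the genes of each list or symbol family shown (12 or more genes) that held a shared narrow gene-body peak, with exact 95% intervals over genes; the dashed line is the 2.78% of all genes with a symbol. Jasmonate genes (8 of 26) and SPL genes (4 of 14) have the highest shares. The meristem, boundary and carpel list and the NAC, DOF, SAUR, ribosomal protein and HSP symbol families have none, where a family holds only genes with that symbol.

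Floral organ identity genes were hosts in 3 of 14 cases (21.4%, 4.66 to 50.8), and in all 3 the summit lay close to the edge of the gene. AP3, which specifies petals and stamens, had folds of 4.63 in SEP3wt and 8.52 in SEP3tet, with the summit 86 bp from the edge. SHP1, which acts in the valve margin of the fruit and in ovules, had its SEP3wt peak at 21738058 to 21738343 of chromosome 3, 35 bp from the edge. Its folds were 4.03 and 9.38, and the SEP3tet peak was 700 bp wide beside 286 bp in SEP3wt. AP1 had a weaker peak 126 bp from the edge (chromosome 1, 25986042 to 25986357), with 3.97 and 4.42. By percentile among the 626, AP3 stood at 86.8 by SEP3wt fold and 97.4 by SEP3tet fold, SHP1 at 74.0 and 99.0, and AP1 at 72.8 and 59.6.

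Flowering-time genes were hosts in 6 of 34 cases (17.6%, 6.76 to 34.5), and 2 of them had strong peaks. SVP, a MADS-box repressor of flowering, had folds of 5.33 and 6.78 (chromosome 2, 9580047 to 9580390) with the summit 556 bp inside the gene, and AGL18 is described above. The others were weak in SEP3wt: FD, a bZIP partner of FT, had 2.56 and 3.84. TEM1, a repressor of FT, had 3.10 and 4.33, and SPL9, a promoter of flowering that miR156 restrains, had 2.60 and 4.66. FKF1, a blue-light receptor of the photoperiod pathway, had 2.67 and 2.83, with summits 185 bp apart and the SEP3tet summit outside the gene.

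SPL genes were hosts in 4 of 14 cases (28.6%, 8.39 to 58.1): SPL8, SPL2, SPL9 and SPL11. SPL2 held 2 peaks, with SEP3wt folds of 3.65 and 3.11, both under 1 SEP3tet peak of fold 4.04. SPL11 had 3.21 and 4.42 and its summit 930 bp from the edge. Of other developmental genes, YAB2, which acts in the abaxial side of organs, was the only host among 35 organ growth and polarity genes (chromosome 1, 2677315 to 2677579; 4.30 and 5.24; 1610 bp from the edge), and SPL8 the only one among 17 stamen, pollen and ovule genes. None of 28 meristem, boundary and carpel genes was a host (0%, up to 12.3%).

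Auxin genes were hosts in 6 of 46 cases (13.04%, 4.94 to 26.3), among them a group of PIN genes, which encode carriers that move auxin out of cells. PIN3 had folds of 7.34 and 8.95, PIN7 3.32 and 4.37 (chromosome 1, 8181424 to 8181732), and PIN4 2.67 and 2.91 (chromosome 2, 181044 to 181204). These summits lay deep inside the gene, at 1552, 1457 and 1097 bp from the edge, where the median of the 626 was 349.5 bp. ATAUX2-11 and IAA16, a further Aux/IAA gene (3.43 and 3.75), had theirs 74 and 141 bp from the edge, and the auxin receptor gene TIR1 (2.67 and 3.27) at 8 bp. The 46 include AT2G24765, matched by its symbol ARF3, while the auxin response factor gene ETT (AT2G33860) is in the meristem, boundary and carpel list.

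Gibberellin genes were hosts in 3 of 24 cases (12.5%, 2.66 to 32.4), with 1 member each from synthesis, inactivation and perception. At GA1 (chromosome 4, 1241156 to 1241418) the summits of both lists fell on the same base, 3515 bp from the edge, the deepest of all 626, with folds of 5.22 and 6.69. GA2OX2, which inactivates gibberellins, had 3.21 and 5.53, with the SEP3wt summit 6 bp from the edge and the SEP3tet summit outside the gene. GID1C, a gibberellin receptor gene (chromosome 5, 9629114 to 9629276), had 2.38 and 5.39 with summits 3 bp apart. In the cytokinin list, 3 of 32 genes were hosts (9.38%, 1.98 to 25.02). These were CKX7, which degrades cytokinin (chromosome 5, 7228888 to 7229263; 5.66 and 6.64), and the cytokinin-activating genes LOG8 (4.93 and 7.51) and LOG3 (2.94 and 5.29).

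Jasmonate genes were hosts in 8 of 26 cases (30.8%, 14.3 to 51.8) and held 12 peaks. Jasmonate is needed for stamen maturation, and OPR3 makes its precursor. The allene oxide cyclase genes AOC1, AOC2 and AOC4, which act before OPR3 in the same pathway, had peaks 2, 129 and 136 bp from the edge that were 159, 346 and 179 bp wide. AOC2 was the strongest of them, with 5.05 and 6.35 (chromosome 3, 9406667 to 9407012). AOC1 and AOC2 are neighbouring near-identical copies, so reads could be split between them. OPR3 and the lipoxygenase gene LOX4 each held 2 broader peaks over 500 bp from the edge, of 742 and 580 bp at OPR3 and 473 and 664 bp at LOX4. The OPR3 peaks had folds of 4.14 and 3.65 in SEP3wt beside 2.51 and 4.81 in SEP3tet, and the LOX4 peaks 3.85 and 3.81 beside 2.91 and 2.74. The repressor gene JAZ6 held 3 weak peaks, with SEP3wt folds of 2.21 to 3.38, and TIFY7 (JAZ9) 1 peak with 3.32 and 6.30. MYC3, which encodes a bHLH activator of jasmonate responses, had 4.03 and 3.94.

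Brassinosteroid and light signalling genes were hosts in 6 of 27 cases (22.2%, 8.62 to 42.3). The overlapping SEP3tet peaks of all 6 had folds above the median of 3.99, but that at PHYA had its summit outside the gene. PIF4, a bHLH factor of light and temperature signalling, was the strongest, with 6.15 and 7.79 (chromosome 2, 17886326 to 17886839). BAS1, which inactivates brassinosteroids, had 4.73 and 6.78 (chromosome 2, 11382610 to 11382914), and the co-receptor gene BAK1 had 4.30 and 6.45. PIL6 (PIF5) had 2.83 and 5.34, and the blue-light receptor gene CRY2 had 3.00 and 4.61. At PHYA, the phytochrome A gene, the overlapping SEP3tet peak had 6.35 beside 2.56 in SEP3wt, but its summit lay 796 bp away and outside the gene. That SEP3tet peak also overlapped a SEP3wt peak in AT1G09575, with a SEP3wt fold of 5.48 and summits 10 bp apart.

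Host genes with an ERF or WRKY symbol, many of which act in stress and defence, had SEP3tet folds below the median of 3.99 at every peak. Genes of these families under other symbols or without a symbol are not counted. WRKY18 held 3 of these peaks, not all of them paired with separate SEP3tet peaks. All 65 shared narrow gene-body peaks over 600 bp wide also had a low median SEP3tet fold, 3.35. Whether the low folds go with the families or with peak width was not tested. ERF and RAP2 genes were hosts in 4 of 31 cases (12.9%, 3.63 to 29.8). ERF5, ERF6, ERF11 and ERF104, which encode ethylene-response factors, had SEP3wt folds of 3.32, 4.30, 3.38 and 2.74 and SEP3tet folds of 2.59, 2.25, 2.74 and 2.73. Their widths ran from 472 bp at ERF11 to 950 bp at ERF6, above the median of 266 bp, and all 4 summits were over 250 bp from an edge. WRKY genes were hosts in 5 of 67 cases (7.46%, 2.47 to 16.6), namely WRKY11, WRKY18, WRKY40, WRKY46 and WRKY53, with SEP3tet folds from 2.35 at WRKY11 to 3.60 at WRKY53, all below the median of 3.99. In the cold, touch and calcium list 4 of 26 genes were hosts (15.4%, 4.36 to 34.9). ZAT6, a zinc-finger gene, had 4.63 and 2.19, and the calmodulin-like gene CML38 4.73 and 4.33 in a peak of 958 bp. COR15A, a cold-response gene, had 3.86 and 3.87, and DDF1 3.10 and 3.41.

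The shares of other transcription factor families lay on both sides of the 2.78%. BBX and COL genes had 4 of 26 (15.4%, 4.36 to 34.9): COL1 (5.06 and 5.14), BBX17 (4.52 and 5.43), BBX21 (4.52 and 5.19) and COL9 (2.72 and 3.80). Homeobox genes had 5 of 78 (6.41%, 2.11 to 14.3), with HDG1 (4.30 and 7.94) and HB4 (3.27 and 6.83) highest in SEP3tet. Genes with a bHLH symbol had 2 of 13, MYB genes 3 of 116 with MYB108 (3.86 and 5.92) the strongest, and TCP genes 1 of 16, TCP9 (4.14 and 5.24). Families were taken by symbol, so bHLH genes under other symbols, such as the hosts HBI1, PIF4 and MYC3, are not counted in the 13. The family of calcium sensors and their kinases had 3 of 72. NAC genes had 0 of 81 (up to 4.45%). The housekeeping, photosynthesis and cell wall lists had 1 host each. Their wide intervals hold the 2.78% of all genes with a symbol but also the shares of the auxin and gibberellin lists. Of 30 housekeeping genes the host was HSC70-1 (3.33%, 0.08 to 17.2). It was RBCS3B (folds 3.59 and 5.29) of 32 photosynthesis genes (3.1%, 0.08 to 16.2), and BXL1 of 25 cell wall genes (4.0%, 0.10 to 20.4). There were 0 of 35 genes with a ribosomal protein symbol. RBCS3B has near-identical copies, so its reads could be split.

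Some genes held a row of weak peaks in place of 1 site. Of the 559 host genes, 515 held 1 peak, 27 held 2, 12 held 3, 4 held 4 and 1 held 5. The 111 peaks in the 44 genes with 2 or more had median folds of 3.05 in SEP3wt (2.89 to 3.16) and 3.07 in SEP3tet (2.88 to 3.22). The 515 single peaks had 3.32 (3.27 to 3.43) and 4.33 (4.13 to 4.42). Peaks of the first kind lay deeper in the gene, a median of 653 bp from an edge (553 to 807) against 271 bp (232 to 315). Their summits differed more between the lists, by a median of 88 bp (60 to 143) against 27 bp (23 to 30). Both contrasts follow in part from the grouping. Separate peaks in 1 gene have less room near its edges, and 1 SEP3tet summit cannot lie close to several separate SEP3wt summits. In HSFC1, 3 SEP3wt peaks were paired with 1 SEP3tet peak, with summits 593, 19 and 468 bp apart. A SEP3tet fold shared in this way is counted once for each SEP3wt peak in the median, its interval and the counts. A SEP3wt fold of at least 5 was found in 2 of the 111 and in 60 of the 515, and a SEP3tet fold of at least 5 in 10 and in 183.

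The 5 genes with the most peaks encode proteins of transport, defence and hormone breakdown: NRT1.7, a nitrate transporter, with 5, and with 4 each AVP1, a vacuolar proton pump, PEN3, an ABC transporter of defence, RBOHD, an NADPH oxidase of the oxidative burst, and CYP707A3, an abscisic acid hydroxylase. Their 21 peaks had SEP3wt folds from 2.23 to 4.19 and SEP3tet folds from 2.00 to 3.60, with no strong site in either list. In NRT1.7 the SEP3wt folds in order along the chromosome were 2.78, 2.78, 3.43, 3.21 and 2.89, and the SEP3tet folds 2.74, 2.83, 2.79, 2.78 and 2.69 (26316003 to 26319920 of chromosome 1). In RBOHD they were 4.19, 3.05, 3.48 and 2.46 beside 2.72, 3.31, 2.00 and 2.83. Some genes with several peaks did hold a stronger site. In GAE6, a pectin precursor gene with 3 peaks, the SEP3tet peak paired with the SEP3wt summit 93 bp from the edge had a fold of 7.75. The others of GAE6 had 2.79 and 4.66. LRX3 and AT5G46710, also with 3 peaks, had SEP3tet folds of up to 6.88 and 6.49, and AT1G35780, with 2, of up to 8.61.

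**Figure D5:**
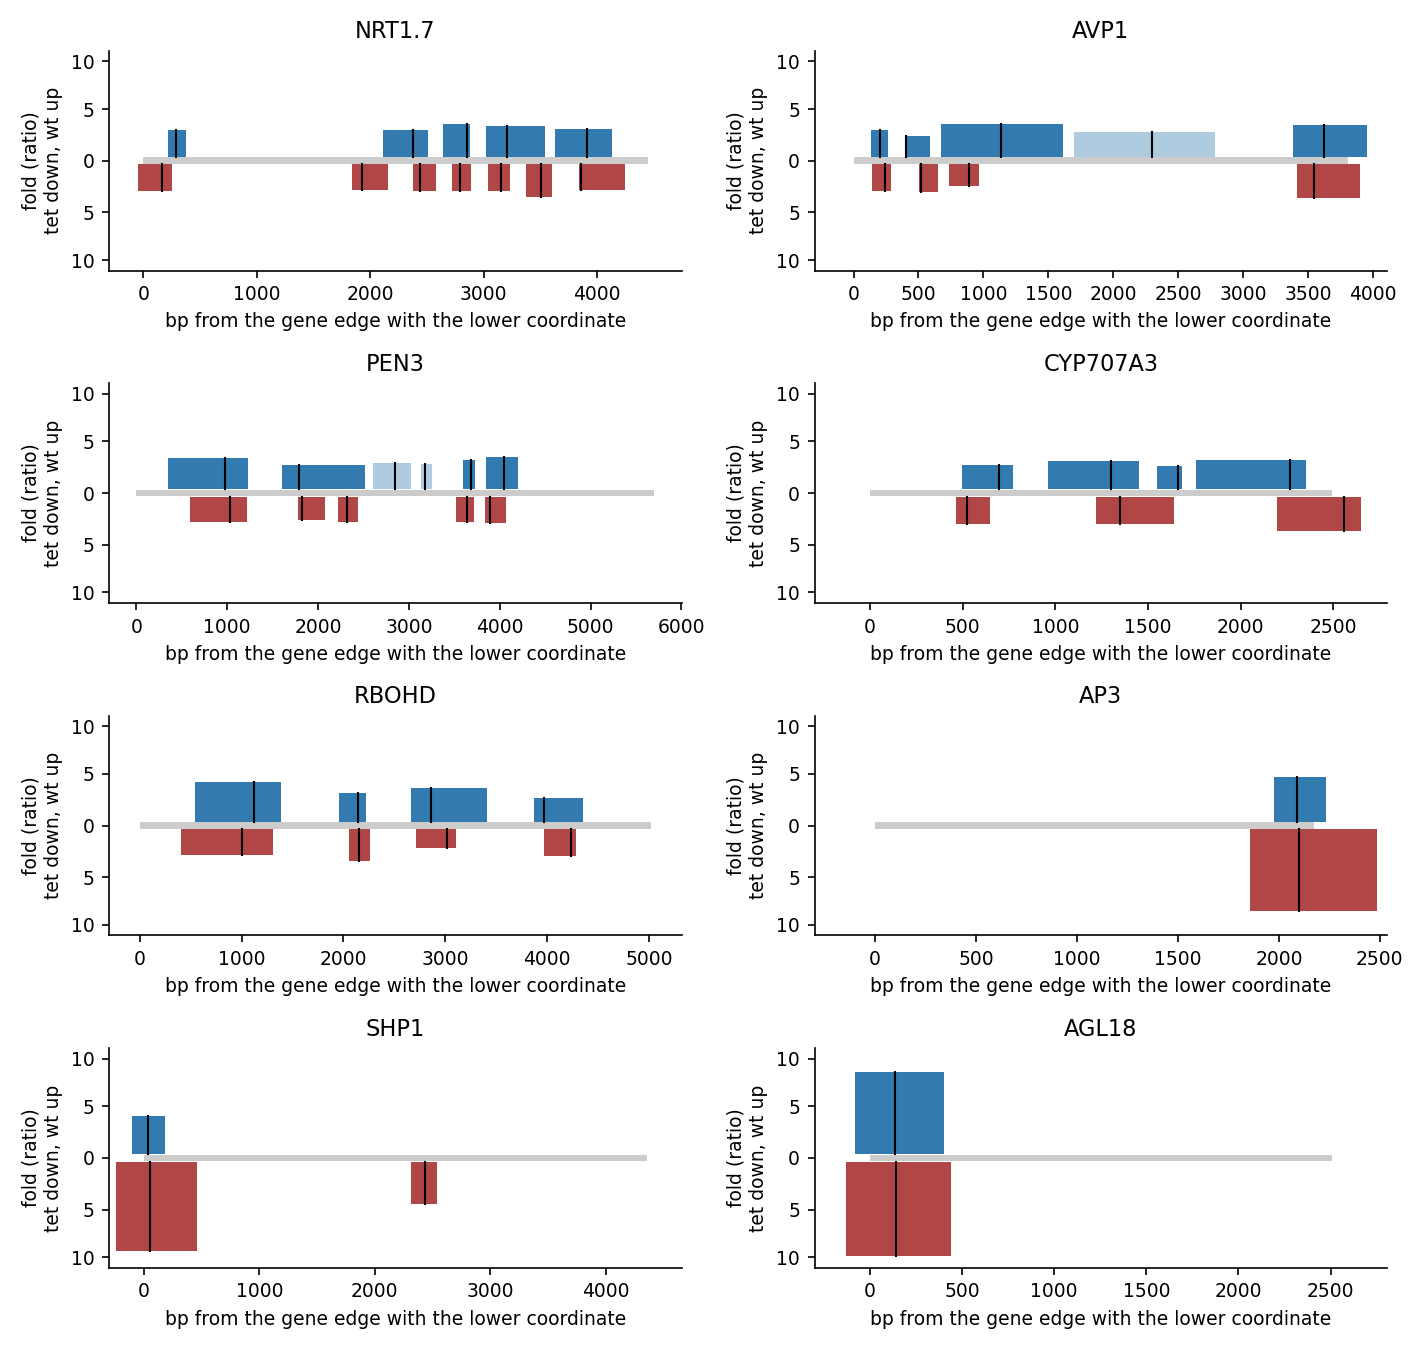
Peaks of SEP3wt (blue, upward) and SEP3tet (red, downward) along the 5 genes with 4 or more shared narrow peaks and along AP3, SHP1 and AGL18; the horizontal axis is the distance in bp from the gene edge with the lower coordinate, the grey bar is the gene, box height is the authors' fold (ratio) and black lines are summits. Pale blue peaks are SEP3wt peaks outside the set (no overlap, or over 1000 bp wide). The first 5 genes carry rows of low boxes, whereas AP3, SHP1 and AGL18 carry 1 SEP3wt peak at a gene edge; SHP1 also has a SEP3tet peak inside the gene with no SEP3wt peak.

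Among peaks in genes with a symbol, those whose place in the order of folds differed most between the lists are given as a description. Higher in the SEP3tet order, after PHYA, whose SEP3tet peak is shared with AT1G09575, were GID1C, VEL1, ECA2, DPA4 and ERD5. VEL1, a gene of the VIN3 family that acts in vernalization (chromosome 4, 14790189 to 14790404), had 2.93 in SEP3wt and 7.36 in SEP3tet. ECA2, a calcium pump gene, had 2.67 and 5.48. DPA4, a repressor of leaf margin outgrowth, had 2.58 and 4.95. The SEP3wt peaks of these 6 genes were 140 to 216 bp wide, and in GID1C, VEL1, ECA2 and DPA4 the summit was within 250 bp of the edge.

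Higher in the SEP3wt order, again among genes with a symbol, were ZAT6, ERF6, LRX3, SAG20, OPR3 and BXL1. The LRX3 peak, in a cell wall extensin gene (chromosome 4, 7758926 to 7759913), had 4.35 and 2.67, and that of SAG20, a senescence-associated gene (chromosome 3, 3442608 to 3443553), had 4.52 and 2.73. BXL1, a β-xylosidase gene (chromosome 5, 20012087 to 20012464), had 3.97 and 2.19. These SEP3wt peaks were 378 to 988 bp wide and all 6 summits were over 250 bp from an edge. Both groups were picked by fold order, and the SEP3wt fold rose with SEP3wt width (rho 0.48). The widths of the groups therefore follow in part from the choice, and neither width nor position was tested. In LRX3, a further peak 21 bp from the edge had 4.79 and 6.88.

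The peaks next to the width limit of 1000 bp had SEP3wt folds of 2.88 to 7.18. Just inside were AT4G27652 (995 bp; 4.30 and 2.64), AT2G23120 and LRX3 (988 bp). Just outside were RAV1 (1002 bp; 3.65 and 11.1), MSS3 (1002 bp; 4.08 and 3.58) and MKK9 (1004 bp; 2.88 and 3.32). The SEP3tet summit paired with RAV1 lay 891 bp away and outside the gene. The 155 shared gene-body peaks over 1000 bp had median folds of 5.11 in SEP3wt (4.69 to 5.49) and 4.02 in SEP3tet (3.75 to 4.33), and 48.4% of their summits were within 100 bp (40.3 to 56.5).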

How the data were processed

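The samples were 2 ChIP samples and 1 mock sample per line, and the files were 1 peak list per line. The submitters' processing notes name Trimmomatic 0.36, Bowtie2 2.2.5, MACS2 2.2.7.1, deepTools and build TAIR10; how replicates were combined and which control was used are not given in the sources used here. The deposited fold is the authors' ratio of ChIP signal over background at the summit, read from the narrowPeak layout. The deposited −log10 q values are the authors', and the deposited score is 10 times the −log10 q cut to a whole number; the score and the −log10 p column were not used.

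Coordinates printed are the files' own, counted from 1. Genes came from a RefSeq table of TAIR10.1, and none of its coordinates are printed. Without a shift, 45.3% of SEP3wt and 39.8% of SEP3tet summits lay in genes. With 10 shifts of the summits, by 1000 to 20000 bp either way, the shares were 54.7 to 64.0% and 54.3 to 64.0%. Positions of both builds were therefore used together. Offsets smaller than these shifts were not checked, and the short distances to a gene edge rely on there being none. The table gives no strand or exons and no genome sequence was used here, so no sequences, motifs, exons or introns are described. Where several SEP3tet peaks overlapped (19 SEP3wt peaks), the one with the nearest summit was read; a summit in 2 genes (11 peaks) was given to the gene in which it lay deeper. Of the summits, 20 also lay in a gene that codes for no protein.

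Shares carry exact Clopper-Pearson and medians exact binomial 95% intervals. These take in counting error alone, over peaks or genes. The members, the gene lists (14 lists, 18 symbol families) and the rule for naming genes were chosen with earlier results of these data known. Named were the 15 highest SEP3wt and 8 highest SEP3tet folds, the 6 symbol-bearing peaks most displaced in order either way, genes with several peaks, list genes, and peaks next to the width limit or with the closest or farthest summits. List names were matched by symbol or synonym, and 13 names by locus, 12 of them ambiguous. GAE6, LRX3, AT5G46710 and AT1G35780, named among genes with several peaks, were singled out there after their values were seen. The count of 1 symbol family is not reported here. The families for GH3 and ARR symbols (0 of 7 genes each) were too small to plot, and the microRNA family matched no protein-coding gene. Python 3.11.15, pandas 2.3.3 and SciPy 1.17.1 were used, and the rule was tested on simulated data.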

Additional observations from a re-analysis of the deposited data

How the results depend on the processing

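No value per replicate was held, so no replicate could be left out. No paired analysis was possible because each line had 1 peak list. Of 63 alternative values, 43 stayed within the interval, or within 1.5 times the count, of the reported value and 20 did not. With peaks of −log10 q of at least 5 in both lists, 273 peaks were left, with median folds of 4.14 in SEP3wt and 5.24 in SEP3tet, 90.1% of summits within 100 bp, 95.2% in the same gene and 26 list genes. With at least 10 the values were 112 peaks, 5.03, 6.4, 93.8%, 96.4% and 14 list genes; both settings select on fold by construction. Summits within 100 bp as the condition gave a median SEP3tet fold of 4.33, 95.3% in the same gene and, by construction, 100% within 100 bp. With the summit at least 100 bp inside the gene, 50.5% lay within 500 bp of an edge in place of 59.6%. That lower share follows by construction, since the setting drops the summits nearest to an edge. In this setting 97.1% of SEP3tet summits were in the same gene. Without genes that held several peaks, an alternative chosen after seeing the data, the median SEP3tet fold was 4.33, 83.3% of summits were within 100 bp and 65.4% within 500 bp of an edge. A stricter overlap of 50%, both width limits and single-gene summits changed none of the 7 values beyond these bounds. The planned share of summits in the part of the gene nearest its start and of promoters with a CArG box were not run, since strand and sequence were not used here. For the setting without genes of several peaks, the cause was not tested.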
